A study of Mus musculus with 34 samples.

Results

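The liver of 7 unheated mice was compared with a common reference RNA on 20 arrays, out of 34 arrays and 13 mice in the whole series. The arrays were those whose titles carry TN, which the labels spell out as thermoneutral, meaning a surrounding temperature at which a mouse needs no extra effort to keep its own. All 7 mice ate a fescue diet free of endophyte, a fungus that lives inside the grass. The other 14 arrays, of 6 mice under chronic heat stress, were not used. The series title names the tissue as liver, and the labels of these 20 arrays give no tissue, strain, age, sex or temperature. Each array set the RNA of a single mouse, in one dye, against universal mouse reference RNA in the other; the make-up of that reference is not given in the sources used here. Each mouse had 2 to 4 arrays. The liver RNA was in Cy5 on 13 arrays and in Cy3, the swapped orientation, on 7, and every mouse had both. The mouse identifiers begin with F for 3 mice and M for 4, a letter used here only as a letter.

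The comparison asks which of the arrayed genes an unheated liver holds in larger or smaller amounts than a common standard, the control side of the heat comparison made in the series. Hepatocytes, the main cells of the liver, secrete most plasma proteins, turn ammonia into urea, make and release glucose, burn fatty acids and break down foreign compounds with P450 enzymes. Kupffer cells are the macrophages resident in the liver, and stellate cells make its matrix. A universal reference RNA is commonly pooled from many tissues or cell lines, so that a gene used by 1 tissue is diluted in it, while genes of cell growth are well represented.

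Every value below is read as a log2 ratio of liver over reference, with each array centred on the median of all its spots, so that 0 is the median spot and 1 is a 2-fold difference from it. The sources used here do not give the log base, so every fold value rests on that reading. The arrays held rat oligonucleotides for 1400 liver genes by the series' own account, so 0 is not equal expression in liver and reference, and the ratio of a gene says nothing of its abundance beside another gene's. A gene was called above or below where its adjusted p was under 0.05 in limma's two-sided one-sample test over the mice, with Benjamini-Hochberg adjustment over all 1856 features. The ± values are SDs over 7 mice unless another n is given. The reference was 1 RNA with no spread of its own. In bulk RNA, fewer cells of a type and less RNA per cell cannot be told apart.

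The direction of the ratios was checked on genes for plasma proteins and for ribosomal proteins. On the 20 arrays, 26 to 36 of the 38 plasma protein genes lay above the array median, and 0 to 6 of the 51 ribosomal protein genes did. Mice correlated with each other over all features, named or not, at r between 0.42 and 0.93, with a median of 0.83. Mice M244 and M211 stood apart: against the mean of the other mice r was 0.68 and 0.78, and for the other 5 it was 0.91 to 0.93. On the Cy5 array of M244 the spread of the ratios, as a median absolute deviation, was 2.45, against 0.59 to 1.19 on the other arrays. The Cy3 arrays of M243 and M251, different mice, correlated at r = 0.89, above the highest r of 0.85 between arrays of 1 mouse. Counts are therefore also given without M211 and M244.

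Many features lay away from the array median. Of all 1856 features, 363 (19.6%) were called above and 373 (20.1%) below. Among the 1019 features with a gene name, 274 (26.9%) were above and 267 (26.2%) below. A stricter limma test (treat), which asks whether a ratio lies beyond 2-fold, called 96 named genes above (9.42%) and 59 below (5.79%). Without M211 and M244 the named counts were 295 above and 302 below, and 96 and 65 beyond 2-fold. Because each array was centred on its own median, the balance between calls above and below is largely set by the centring and is no result about the liver; with no centring it was 252 named genes above and 180 below. The upper tail was longer. The means of 31 named genes exceeded 3 and the highest was 5.61, while the means of 6 lay under -3 and the lowest was -3.69. In 225 named genes all 7 mice lay above 0, and in 240 all 7 lay below. The median SD between mice was 0.51. The 837 unnamed spots spread less: 87.8% of them lay within 2-fold of the array median, against 70.4% of the named genes.

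The 15 highest and 15 lowest genes described next were taken from called genes with the same sign in all 7 mice and in both dye orientations, so that the side of 0 on which their mice lie is part of the choice. The highest ratios belonged to carriers and secreted proteins of the hepatocyte. Fabp1, the fatty acid binding protein of the liver cytosol, ran from 5.25 through a median of 5.67 to 5.92 over the 6 mice with a value, M244 having none. Its mean was 5.61 ± 0.28 (n = 6), 48.8-fold over the array median, with an adjusted p of 3.04e-17 in limma. Alb, serum albumin, ran from 4.40 through 5.10 to 6.28, highest in M244, and its mean was 5.13 ± 0.64, or 35.0-fold. Apoa1, the main protein of high density lipoprotein, ran from 4.30 through 4.85 to 5.80, with a mean of 5.04 ± 0.56.

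Below these 3 came a mixed group of membrane, enzyme and plasma protein genes. Vamp8, a vesicle fusion protein, had a mean of 4.96 ± 0.41 with 6 mice between 4.99 and 5.27 and M244 at 4.06. Mgst1, a membrane-bound glutathione transferase, was among the steadiest at 4.83 ± 0.28, from 4.50 to 5.26. Cyp2e1, the P450 that oxidises ethanol, averaged 4.50 ± 0.71 and was lowest in M211 at 3.33. Serpina1, the antitrypsin gene, averaged 4.47 ± 0.57. Rbp4, which carries retinol in plasma, averaged 4.22 ± 1.13 and was wide, from 2.82 and 2.83 in M251 and M243 to 5.71 in F223. Ptgis, prostacyclin synthase, averaged 4.18 ± 0.43, and Apob, the backbone of very low density lipoprotein, 4.06 ± 0.52.

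The remaining 5 of the 15 highest were Vtn, Pck1, Ahsg, Gc and Cat. Vtn, vitronectin of plasma and matrix, averaged 3.94 ± 0.83, again lowest in M243 at 2.73 and M251 at 2.94. Pck1, the committed enzyme of glucose synthesis, averaged 3.85 ± 0.58, from 3.06 to 4.49. Cat, catalase of the peroxisome, averaged 3.75 ± 0.36. Ahsg, fetuin A, averaged 3.81 ± 0.38, and Gc, the vitamin D binding protein, 3.76 ± 0.37, but the spots of these 2 genes disagreed in size. The 4 spots of Ahsg averaged between 2.21 and 4.80, and the 4 spots of Gc between 0.18 and 5.09. By contrast the 3 spots of Alb lay between 5.02 and 5.27, and the 3 of Cyp2e1 between 4.31 and 4.82.

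**Figure D1:**
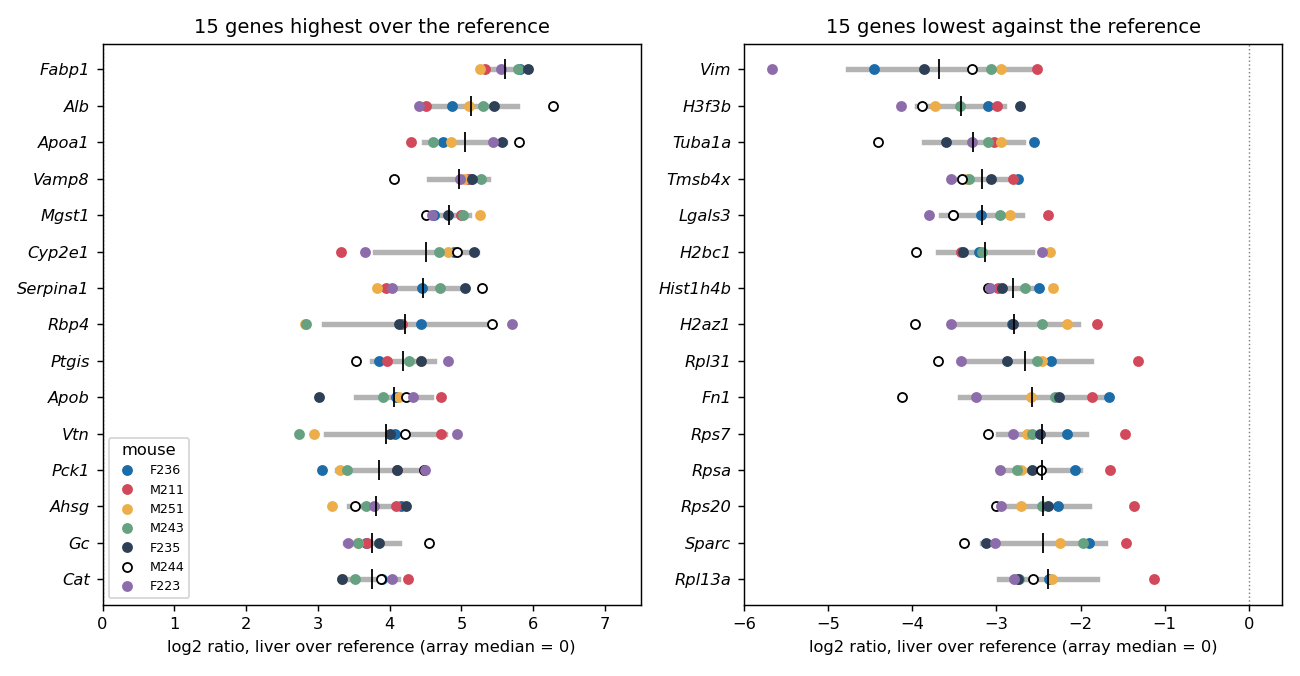
Log2 ratio of liver over reference in each of 7 mice (points, M244 open) for the 15 highest genes (left) and the 15 lowest (right), with the mean (black tick) and mean ± SD (grey bar). Genes were chosen to have all mice on one side of 0, the array median; the highest mean is 5.61 for Fabp1, which has no M244 value, and the lowest -3.69 for Vim.

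The lowest ratios belonged to cytoskeleton, chromatin, matrix and ribosome. Vim, vimentin, the intermediate filament of mesenchymal cells, ran from -5.67 through -3.29 to -2.52, and its mean was -3.69 ± 1.08, 12.9-fold below the array median, with an adjusted p of 4.30e-12 in limma. H3f3b, a histone H3 variant, averaged -3.42 ± 0.52, from -4.13 to -2.71. Tuba1a, an alpha tubulin of growing cells, averaged -3.27 ± 0.59, lowest in M244 at -4.41. Tmsb4x, thymosin beta, which binds actin monomers, was steady at -3.17 ± 0.31, and Lgals3, a galectin of macrophages and many cultured cells, averaged -3.17 ± 0.48.

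Further histone genes followed. H2bc1 averaged -3.14 ± 0.56, Hist1h4b -2.80 ± 0.30 and H2az1 -2.79 ± 0.76. Fn1, fibronectin, averaged -2.58 ± 0.85, lowest in M244 at -4.12, and 1 of its 20 arrays was above 0. Sparc, a matrix protein of mesenchymal cells, averaged -2.44 ± 0.73. The other 5 of the 15 lowest were ribosomal: Rpl31 at -2.66 ± 0.78, Rps7 at -2.46 ± 0.53, Rpsa at -2.45 ± 0.45, Rps20 at -2.45 ± 0.55 and Rpl13a at -2.38 ± 0.58. M211 was the highest mouse in all 5, for instance -1.12 in Rpl13a where the other mice lay between -2.79 and -2.34.

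Promoter sequence is shown for 4 genes of the upper group and 2 of the lower, because the letters of liver factors and of broadly used promoters can be seen side by side in them. Each line is the 250 bases before the start of transcription, 5′ to 3′ in the direction of the gene, from RefSeq on build GRCm38.p6. Capitals mark matches, on either strand, to 6 short motifs: GTTAAT, the core of the site of the hepatocyte factor HNF1; CAAAGTCCA for HNF4; TTGCNNAA for C/EBP factors; TATAAA, the TATA box; CCAAT; and GGGCGG, the GC box. The windows are chr6:71199629-71199878, plus strand; chr5:90460620-90460869, plus strand; chr5:89457899-89458148, minus strand; chr11:78498870-78499119, plus strand; chr2:13574061-13574310, plus strand; and chr1:39367601-39367850, plus strand.
Fabp1: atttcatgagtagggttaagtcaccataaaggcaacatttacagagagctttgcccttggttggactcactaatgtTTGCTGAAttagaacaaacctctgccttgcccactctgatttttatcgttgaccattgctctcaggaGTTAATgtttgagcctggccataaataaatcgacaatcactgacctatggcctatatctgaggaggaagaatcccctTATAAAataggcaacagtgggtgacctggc
Alb: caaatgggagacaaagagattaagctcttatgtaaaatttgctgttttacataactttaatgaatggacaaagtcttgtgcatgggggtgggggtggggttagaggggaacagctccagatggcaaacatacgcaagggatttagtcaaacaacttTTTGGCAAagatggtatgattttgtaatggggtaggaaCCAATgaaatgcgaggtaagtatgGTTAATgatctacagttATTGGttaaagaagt
Gc: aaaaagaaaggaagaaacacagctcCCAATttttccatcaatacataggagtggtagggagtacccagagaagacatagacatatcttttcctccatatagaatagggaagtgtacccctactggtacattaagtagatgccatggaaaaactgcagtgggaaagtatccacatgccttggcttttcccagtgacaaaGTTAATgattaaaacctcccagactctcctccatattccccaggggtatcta
Vtn: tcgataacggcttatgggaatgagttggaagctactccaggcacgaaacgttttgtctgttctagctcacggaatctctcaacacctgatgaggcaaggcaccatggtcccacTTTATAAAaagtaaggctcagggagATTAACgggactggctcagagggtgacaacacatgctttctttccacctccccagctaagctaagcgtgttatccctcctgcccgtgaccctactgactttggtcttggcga
Vim: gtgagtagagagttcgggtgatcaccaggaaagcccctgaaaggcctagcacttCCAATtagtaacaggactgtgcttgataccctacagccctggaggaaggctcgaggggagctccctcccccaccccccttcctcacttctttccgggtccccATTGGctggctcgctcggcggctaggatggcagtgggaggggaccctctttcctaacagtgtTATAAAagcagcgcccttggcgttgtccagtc
Rpl31: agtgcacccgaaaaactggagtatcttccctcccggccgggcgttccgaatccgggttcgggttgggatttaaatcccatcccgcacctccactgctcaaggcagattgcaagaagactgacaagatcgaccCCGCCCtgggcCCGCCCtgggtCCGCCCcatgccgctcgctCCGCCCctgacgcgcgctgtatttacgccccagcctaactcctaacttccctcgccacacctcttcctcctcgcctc
The first 4 each hold an HNF1 core, at -107 in Fabp1, -32 in Alb, -52 in Gc and -112 in Vtn, counted from the start of transcription. Fabp1 and Alb also hold a C/EBP match, at -174 and -94. Fabp1 and Vim hold a TATA box near the start, at -30 and -32; in Vtn 2 matches on opposite strands overlap at -137 and -135. Rpl31 holds 4 GC boxes between -118 and -77 and none of the other letters. These 6 were picked to show the motifs and stand for no share.

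Over all genes the same letters were counted as a description, with no test. Of the 96 named genes above beyond 2-fold, 64 matched the RefSeq promoter table, with 87 promoters; of the 59 below, 47 matched, with 54. The C/EBP letters stood in 27.6% of the upper promoters, in 5.56% of the lower ones, in 9.24% of the 1007 promoters of all named genes that matched and in 9.56% of all 32851 in the table. The HNF1 core stood in 13.8%, 9.26%, 5.96% and 6.43% in the same order, and the TATA box in 21.8%, 7.41%, 10.5% and 12.4%. The GC box ran the other way, at 31.0% of the upper and 51.9% of the lower promoters, beside 53.1% of those of the named genes and 32.7% of all. CCAAT was about as frequent in each, at 40.2%, 38.9%, 38.3% and 33.8%. The HNF4 letters, 9 bases long, were in 0 of 87 upper and 1 of 54 lower promoters. Some genes have several promoters that share bases, and a match is not a bound site.

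Gene lists for liver functions and cell types were read by how many of their measured members were called, beside the shares of 26.9% above and 26.2% below among all named genes, whose median ratio was -0.04. Of 39 lists with at least 5 measured members, 25 had a median above 0. The lists overlap, so that a gene can count in several of them.

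**Figure D2:**
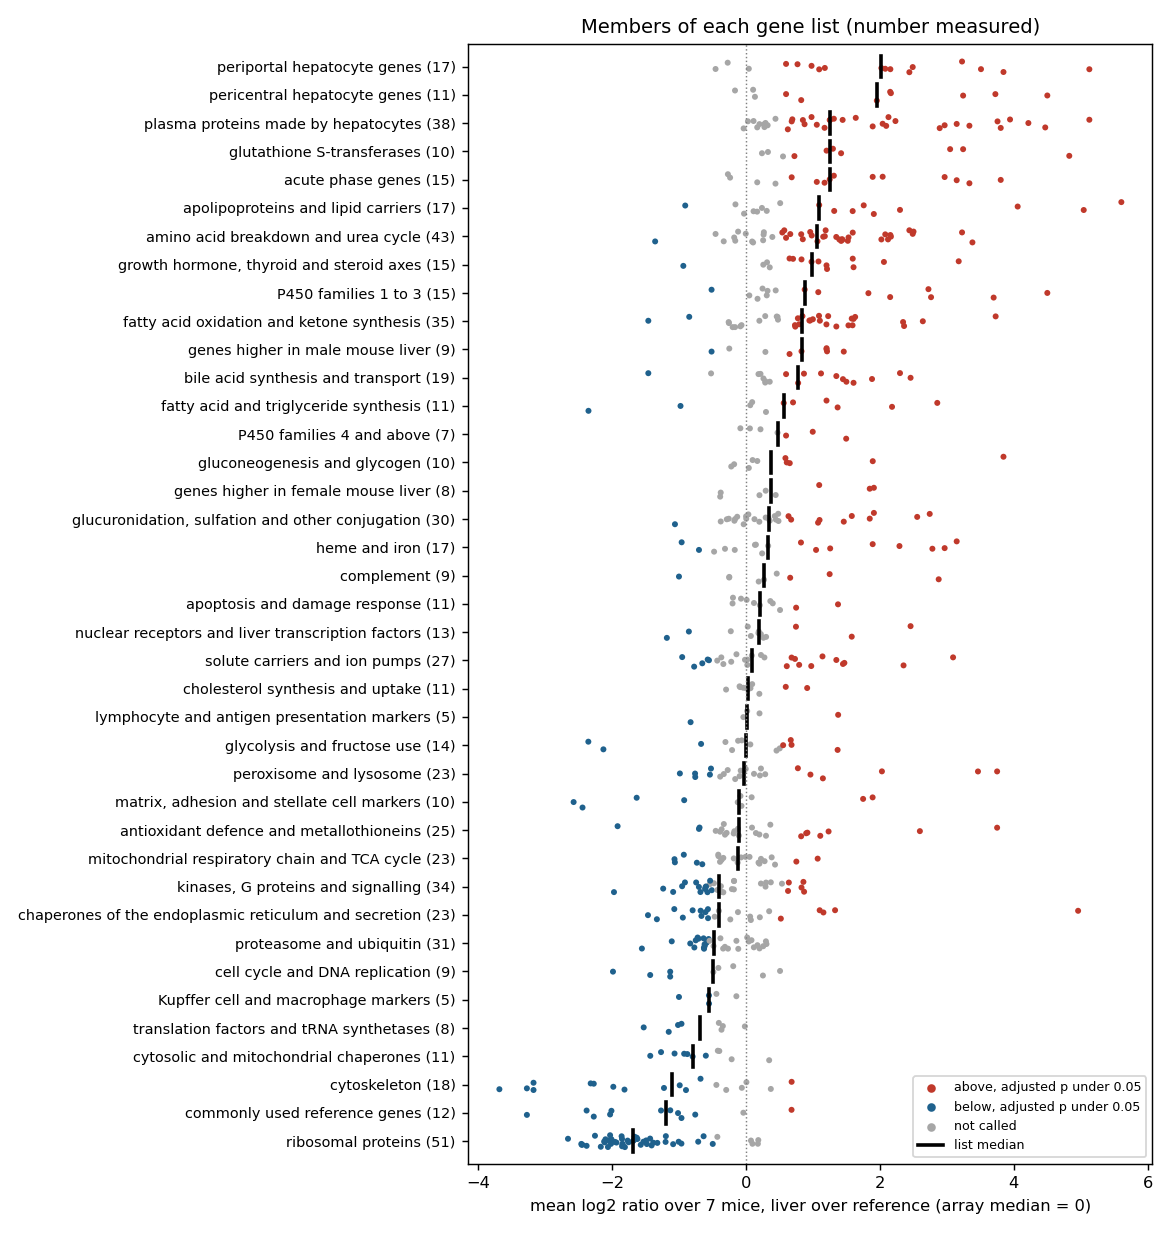
Mean log2 ratio of liver over reference (x axis) for each measured member of 39 gene lists (rows, number measured in brackets), coloured by call, with the list median as a black bar; vertical scatter has no meaning. Medians run from -1.69 for ribosomal proteins to 2.02 for periportal hepatocyte genes.

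Plasma protein genes had served to check the direction of the ratios, so their side of 0 is partly an input and only its extent is described here. Of the 38 measured genes whose products hepatocytes release into plasma, 28 were above, 0 below and 15 above beyond 2-fold, and the median was 1.25. Without M211 and M244, 28 were above and 0 below. Itih4, a protease inhibitor subunit, averaged 3.34 ± 0.68; Hp, haptoglobin, which binds free haemoglobin, 3.15 ± 0.67; and Hpx, hemopexin, which binds free heme, 2.97 ± 0.64. The 4 spots of Hpx lay between 2.81 and 3.09. All 7 mice were above 0 in these 3 genes. The acute phase list, which shares members, had 11 of 15 above and 0 below, with a median of 1.25.

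Not every gene for a hepatocyte protein stood above the array median. How well each rat oligonucleotide read its mouse transcript was not tested. Ttr, transthyretin, which carries thyroid hormone and retinol binding protein, ran from -0.78 through -0.17 to 1.36, with a mean of -0.036 ± 0.68 and an adjusted p of 0.92 in limma. Apoh, a phospholipid binding plasma protein, ran from -0.67 through 0.018 to 1.70, with a mean of 0.11 ± 0.78. M244 was the highest mouse in both, and the other mice lay on both sides of 0. Of 17 apolipoproteins and lipid carriers, 9 were above and 1 below, with a median of 1.09. The 1 below was Apoc1, a small exchangeable apolipoprotein, at -0.91 ± 0.69 (adjusted p = 0.0015 in limma), below 0 in all 7 mice. It lost its call on the arrays with liver in Cy5 alone. Scp2, a sterol carrier of peroxisomes, averaged 2.30 ± 0.42.

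Of 9 complement genes 3 were above and 1 below, near or under the shares of all named genes, with a median of 0.27. C3, the central component made by hepatocytes, averaged 2.88 ± 0.51, and C1s, a protease of the first component, 1.25 ± 0.59; both were above 0 in 7 of 7 mice. C1qb, a chain of the recognition unit made by macrophages, averaged -1.002 ± 0.46 and was below 0 in all 7. It was not called on the arrays with liver in Cy5 alone.

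Enzymes of drug and toxin metabolism stood at uneven heights. Of 15 genes of P450 families 1 to 3, 8 were above and 1 below, with a median of 0.88. The 1 below was Cyp2c11, the male form of the rat, at -0.52 ± 0.48 (adjusted p = 0.047 in limma); it kept its call only when M211 or F235 was the mouse left out, and its mean over the 7 such fits ran from -0.60 to -0.36. Cyp2a2 averaged 3.70 ± 0.85 and Cyp2d2 2.76 ± 0.75, both under rat names, so which mouse family member the oligonucleotide read is not known. In families 4 and above 3 of 7 were called above, and 5 of 7 without M211 and M244. Cyp4f1, an omega-hydroxylase of fatty acids and leukotrienes, averaged 1.50 ± 0.39, and its relative Cyp4f4 averaged 1.00 ± 0.48. F236 alone was high in these 2 neighbours by name, at 2.33 and 2.05, where the other mice lay at 1.21 to 1.60 and 0.69 to 1.08. Members of a family can share a probe's signal.

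Of 10 glutathione S-transferases 7 were above and 0 below, with a median of 1.25. Gstm1 was steady at 3.24 ± 0.22, from 2.89 to 3.50, and Gsta3 averaged 3.05 ± 0.78. Gstp1, the pi-class member, was the most variable named gene on the array, and its values follow further on. Conjugation and related enzymes had 10 of 30 above and 1 below, with a median of 0.35. Among them Aadac, an esterase of the endoplasmic reticulum, averaged 2.74 ± 0.55, the carboxylesterase Ces1d 2.56 ± 0.55 and the sulfotransferase Sult1a1 1.91 ± 0.67.

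Amino acid breakdown was among the lists called above most often. Of 43 enzymes, 30 were above, 1 below and 10 above beyond 2-fold, with a median of 1.07. Bhmt, which remethylates homocysteine with betaine, ran from 2.41 through 3.53 to 4.10, with a mean of 3.38 ± 0.61. Ass1, which joins citrulline and aspartate in the urea cycle, averaged 3.23 ± 0.41. Hpd, an enzyme of tyrosine breakdown, averaged 2.50 ± 0.97 and was lowest in M251 at 1.17 and M243 at 1.48. Glul, glutamine synthetase of the last hepatocytes before the central vein, averaged 2.16 ± 0.66. The 1 member below was P4ha1, a collagen prolyl hydroxylase, at -1.36 ± 0.96, with M244 at -3.31. Neither P4ha1 nor Glul, which was called above, is a breakdown enzyme, so the list is not purely one of breakdown.

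Genes of glucose production and use were read as lists of their own, with no test between them. Of 10 genes for gluconeogenesis and glycogen 5 were above and 0 below, or 4 above without M211 and M244, with Pck1 highest and Gys2, the liver glycogen synthase, at 1.89 ± 0.33. Fbp1, which releases phosphate from fructose bisphosphate, stayed at the array median with 0.041 ± 0.35 and an adjusted p of 0.90 in limma. Of 14 genes for glycolysis and fructose use 4 were above and 3 below. Pklr, pyruvate kinase of liver and red cells, averaged 1.37 ± 0.91, wide from 0.12 in M243 to 2.46 in F236. Eno1, the enolase form found in most tissues, averaged -2.36 ± 0.64, and Pgam1, its neighbour in the pathway, -2.13 ± 0.41, both below 0 in 7 of 7 mice and both below beyond 2-fold. Slc2a2, the glucose transporter of hepatocytes, averaged 1.47 ± 0.40 and Gpd1, which links glycolysis to glycerol, 1.38 ± 0.33.

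Fatty acid breakdown was called above in 22 of 35 genes and below in 2, with a median of 0.84. Beyond 2-fold 8 were above, against 4 without M211 and M244. Hadhb, a subunit of the mitochondrial trifunctional protein, averaged 3.73 ± 0.45; Acsl1, which activates long fatty acids, 2.64 ± 0.63; and Decr1, which handles unsaturated ones, 2.36 ± 0.57. Hsd17b4, a peroxisomal enzyme of the same pathway and of bile acid synthesis, averaged 1.61 ± 0.54. Amacr, the racemase for branched fatty acids and bile acid precursors, went the other way at -1.46 ± 0.81 (adjusted p = 8.95e-06 in limma), below 0 in 6 of 7 mice, M211 being at 0.14.

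Both stearoyl-CoA desaturase genes on the array, which introduce the double bond of oleate, were called in opposite directions. Scd ran from 2.27 through 2.56 to 4.22, with a mean of 2.86 ± 0.70, and Scd2 ran from -3.10 through -2.28 to -1.90, with a mean of -2.35 ± 0.40. They were named as the highest and lowest of the list for fatty acid and triglyceride synthesis, so their distance is part of the choice. Each was called beyond 2-fold on its own. Scd is named after the rat; the mouse liver form is known as Scd1, and whether the probe reads it was not tested. Of the 11 genes for fatty acid and triglyceride synthesis 6 were above and 2 below, with a median of 0.56. Pemt, which makes phosphatidylcholine by methylation, averaged 2.18 ± 0.65, and Tkt, transketolase of the pentose phosphate pathway, -0.98 ± 0.40. Cholesterol synthesis stayed near the array median, with 2 of 11 above, 0 below and a median of 0.029; its highest member was Idi1, an isomerase of isoprenoid units, at 0.91 ± 0.47, which was 0.25 and not called on the arrays with liver in Cy5 alone.

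The list for bile acids, their synthesis and export, held 19 genes, 11 above and 1 below, with a median of 0.78. Nr5a2, a nuclear receptor that acts on bile acid genes, averaged 2.46 ± 0.56, and Abcc2, the canalicular export pump for conjugates, 1.88 ± 0.56. Among 27 solute carriers and ion pumps 11 were above and 5 below, with a median of 0.086. Slc38a3, a glutamine transporter, averaged 3.09 ± 0.70, and Aqp8, a water channel, 2.35 ± 0.58. Of 13 nuclear receptors and transcription factors 3 were above and 2 below. Ppara, the receptor that drives fatty acid oxidation in fasting, averaged 1.58 ± 0.52, and Rara, a retinoic acid receptor, -1.18 ± 0.45.

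The list for growth hormone, thyroid and steroid axes had 11 of 15 above and 1 below, with a median of 0.98. Hsd17b2, which inactivates oestradiol and testosterone, averaged 3.18 ± 0.41, and Igfals, which stabilises insulin-like growth factor in plasma, 2.06 ± 0.58. Socs2, a feedback inhibitor of growth hormone signalling, averaged 1.21 ± 0.38, with F223 highest at 2.00. The 1 below was Dio1, the liver deiodinase of thyroid hormone, at -0.94 ± 0.61, below 0 in 7 of 7 mice.

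Antioxidant genes had 7 of 25 above and 3 below, a median of -0.11, and both extremes. Cat stood at 3.75 and Selenop, which carries selenium in plasma, at 2.60 ± 0.37, although the 4 spots of Selenop ran from -0.15 to 3.57. Gclm, the modifier subunit for glutathione synthesis, averaged 1.23 ± 0.46, highest in M211 at 2.14. Mt1, metallothionein, which binds zinc and copper, averaged -1.92 ± 0.88, from -3.40 in M244 to -0.84 in M211, and was below beyond 2-fold. Heme and iron genes had 8 of 17 above and 2 below. Cyb5a, the microsomal electron carrier, averaged 2.78 ± 0.58. Hmox1, which opens the heme ring, averaged -0.70 ± 0.36, and Fth1, the ferritin heavy chain, -0.96 ± 0.35, its 4 spots lying between -1.01 and -0.93.

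Peroxisome and lysosome genes had 6 of 23 above and 5 below, with a median of -0.033. Uox, urate oxidase, averaged 3.46 ± 0.64 and Abcd3, a peroxisomal membrane transporter, 2.03 ± 0.33. In the respiratory chain and TCA cycle 2 of 23 were above and 5 below, with a median of -0.13. Mdh1, which moves reducing equivalents, averaged 1.07 ± 0.74, and Atp5mc2, a subunit of the ATP synthase ring, -1.07 ± 0.45.

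The genes of the ribosome stood below almost as a group. They too had served to check the direction of the ratios, so their side of 0 is partly an input. Of 51 ribosomal protein genes, 0 were above and 46 below, 29 of them beyond 2-fold, with a median of -1.69, a lowest mean of -2.66 and a highest of 0.18. Without M211 and M244, 47 were below. Both subunits shared this: 29 of 30 genes of the large subunit were below, with a median of -1.76, and 17 of 20 of the small subunit, with a median of -1.65. The 5 not called were Rpl10a, Rps3a, Rps26, Rps14 and Fau, a fusion of a ubiquitin-like and a ribosomal protein; Rps14 and Fau were named after their values were seen. Rpl10a averaged 0.096 ± 0.58, Rps3a 0.18 ± 0.65 and Rps26 0.18 ± 0.75; in each M244 was the highest mouse, and the other mice lay on both sides of 0.

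Translation, nucleolar and folding genes were called below more often than above. The list for translation factors and tRNA synthetases had 8 measured members and no synthetase among them. Of the 8, 4 were below and 0 above, with a median of -0.69. Ncl, nucleolin, averaged -1.53 ± 0.93, Npm1, nucleophosmin, -1.15 ± 0.50 and Eef2, the elongation factor, -1.02 ± 0.20. Of 31 proteasome and ubiquitin genes 14 were below and 0 above, with a median of -0.49; Nedd4, a ubiquitin ligase, averaged -1.56 ± 0.51 and Psma7, a proteasome subunit, -1.11 ± 0.55. Of 11 cytosolic and mitochondrial chaperones 7 were below and 0 above. Hsp90ab1, the constitutive cytosolic Hsp90, averaged -1.43 ± 0.67, with M244 at -2.80, and Ppia, cyclophilin A, -1.27 ± 0.49.

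The secretory route showed both directions. In its list 5 of 23 genes were above and 10 below, with a median of -0.41. Besides Vamp8, Lman1, a cargo receptor for clotting factors, averaged 1.33 ± 0.62 and Sec61a1, the channel into the endoplasmic reticulum, 1.16 ± 0.33. Ssr4, a subunit beside that channel, averaged -1.46 ± 0.45, Hspa5, the main chaperone of the compartment, -1.33 ± 0.41, and Pdia3, a disulfide isomerase, -1.07 ± 0.58. All 7 mice were below 0 in the last 3.

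Cell division, cytoskeleton and signalling followed the same side. In cell cycle and DNA replication 4 of 9 were below and 0 above, with a median of -0.49. Cdk4, a kinase of entry into division, averaged -1.99 ± 0.51, Ran, a nuclear transport GTPase, -1.43 ± 0.54 and Myc, a growth transcription factor, -1.13 ± 0.85. Of 18 cytoskeleton genes 12 were below, 8 beyond 2-fold, and 1 above, with a median of -1.11; Actg1, gamma actin, was steady at -2.27 ± 0.30. Among 34 kinases, G proteins and signalling genes 14 were below and 5 above, with a median of -0.40. Rack1, a scaffold bound to the ribosome, averaged -1.97 ± 0.74, while Gnaq averaged 0.87 ± 0.34, Rhob 0.86 ± 0.41 and Egfr, the epidermal growth factor receptor of hepatocytes, 0.83 ± 0.24. Apoptosis genes had 2 of 11 above and 0 below, with Casp6 highest at 1.37 ± 0.38.

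Genes often used as internal standards were not near the array median. Of 12 measured, 10 were below, 5 beyond 2-fold, and 1 above, with a median of -1.20. Many of the 10 were already counted in other lists. Rps18, Rplp0 and Rpl13a are ribosomal, Eef1a1 and Eef2 are translation factors, and Tuba1a and Actg1 are cytoskeletal. Tuba1a at -3.27, Rpl13a at -2.38 and Actg1 at -2.27 were the lowest. The 1 above was Pgk1, of glycolysis, at 0.68 ± 0.82 (adjusted p = 0.022 in limma), on both sides of 0 between mice; without M211, M251 or M243 in turn it was not called, and its mean ran from 0.50 to 0.89 with single mice left out. B2m, the light chain of class I antigens, was the closest to the array median, at -0.040 ± 0.20, its 3 spots between -0.21 and 0.28. Centring on these 12 genes in place of the array median moved the median of all features to 1.42 and that of the named genes to 1.34, and with it 889 named genes were called above and 47 below (94.98% above, against 50.65% with the array median). Every direction given here is relative to the array median.

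Markers of other cell types were few on the array. In matrix, adhesion and stellate cell markers 4 of 10 were below and 2 above; beside Fn1 and Sparc, Serpinh1, a collagen chaperone, averaged -1.63 ± 0.53. Sdc1, a syndecan abundant on hepatocytes, averaged 1.89 ± 0.65, and Gjb1, the gap junction protein of hepatocytes, 1.75 ± 0.36. Of 5 Kupffer cell and macrophage markers 3 were below and 0 above, with a median of -0.55. Clec4f, a lectin of Kupffer cells, stayed at the array median with -0.14 ± 0.46. Slc11a1, a metal transporter of phagosomes, averaged -0.55 ± 0.33 and Aif1, an actin-binding protein of macrophages, -0.55 ± 0.31; with single mice left out the adjusted p in limma ran from 0.012 to 0.10 and from 0.014 to 0.062. The first lost its call without F236, M251, F235 or F223 and the second also without M243, at means between -0.64 and -0.48 and between -0.62 and -0.45. With liver in Cy5 alone the calls of both, and that of C1qb, were lost.

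Nkg7, of cytotoxic lymphocytes, was above at 1.38 ± 0.65, as the 1 of 5 lymphocyte and antigen presentation markers called above. Another of the 5 was called below, at -0.83 ± 0.42, and the list median was 0.017. Nos3, the endothelial nitric oxide synthase, averaged -0.49 ± 0.33, and Slc4a2, an anion exchanger of bile ducts, -0.57 ± 0.63, each the only marker of its cell type measured. With single mice left out Nos3 ran from -0.53 to -0.38, losing its call without F236, M251, M243, F235 or F223, and Slc4a2 from -0.65 to -0.34, losing it without M251, M243, M244 or F223. Hba-a1, alpha globin of red cells, averaged 1.02 ± 0.61, from 0.11 in M251 to 1.78 in F236, its 4 spots between 0.77 and 1.18; its part in other values was not tested. Of pancreas, gut and fat markers Prss1, trypsinogen, was at 0.20 ± 0.32 and Cfd, adipsin, at 0.19 ± 0.33, neither called, and Pnliprp1, a pancreatic lipase relative, was below at -0.81 ± 0.85; without M244, at -2.67, its mean was -0.50 and it kept its call. Robo2, the 1 measured marker of muscle, nerve or kidney, averaged 0.68 ± 0.42. Neither Pnliprp1 nor Robo2 was called with liver in Cy5 alone, at -0.70 and 0.70, or with unlisted spots as the centre, at -0.88 and 0.61.

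Genes of the ends of the liver lobule, periportal where blood enters and pericentral where it leaves, were both above. Of 17 periportal genes 14 were above and 0 below, with a median of 2.02, the highest of the 39 lists; without M211 and M244, 12 were above and 1 below. Besides Alb, Pck1 and Ass1, Hsd17b6, an enzyme of androgen breakdown, averaged 3.51 ± 0.56. Of 11 pericentral genes 8 were above and 0 below, with a median of 1.95. Besides Cyp2e1 and Gstm1, Car3, a carbonic anhydrase, averaged 3.73 ± 0.78, from 2.49 in M251 to 4.78 in M211.

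Lists of genes known to differ between male and female mouse liver were read in the same way. Of 9 genes higher in males 6 were above and 1 below, with a median of 0.83; Ugt2b1, a glucuronosyltransferase, averaged 1.46 ± 0.53. Of 8 genes higher in females 3 were above and 0 below, with a median of 0.37; Aldh1a1, a retinal dehydrogenase, averaged 1.85 ± 0.33.

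The list medians of single mice differed, and these values include differences between arrays. Pairs of arrays correlated at a median r of 0.71 within a mouse, where same and opposite dye orientations are mixed. Between mice it was 0.72 in the same orientation and 0.63 in opposite ones. How much of the spread between mice comes from the animals and how much from the arrays was not tested. For plasma proteins the list medians were 0.55 in M243 and 0.74 in M251, and 1.38 to 1.82 in the other 5. For ribosomal proteins M211 had the highest median, -0.79, and M244 and F223 the lowest, -2.31 and -2.26. All 7 mice kept the sign of both lists, which had served to check the direction of the ratios. M211 held the highest or lowest value for 24.9% of the 2038 gene ends counted over the 1019 named genes, and M244 for 34.1%, against 6.18% to 12.9% for the others. M244 lay low more often than high, in 599 genes against 96, and M211 high more often than low, in 448 against 60. The named genes of these 2 mice were also shifted as a whole. Their median was -0.63 in M244 and 0.24 in M211, against -0.11 to 0.035 in the other mice. On the Cy5 array of M244 the median was -0.76 for named genes and 1.43 for unnamed spots. How much of the counts comes from such shifts was not tested.

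**Figure D3:**
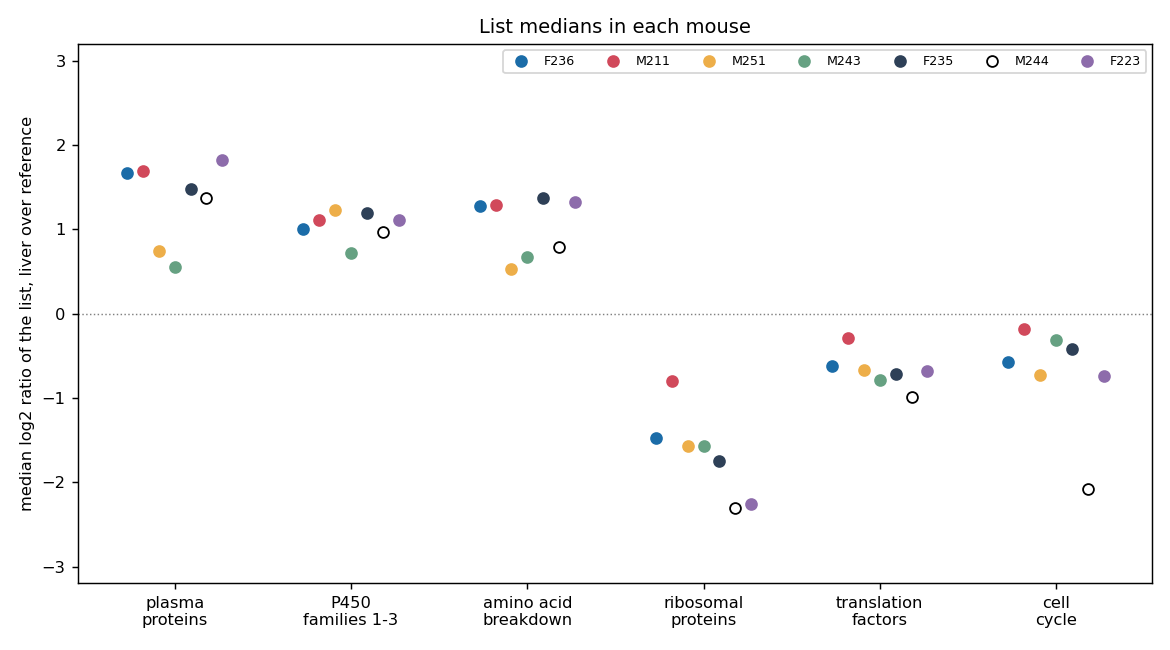
Median log2 ratio of liver over reference (y axis) of the members of 6 gene lists (x axis) in each of 7 mice (points, M244 open). Plasma protein medians are lowest in M243 (0.55) and M251 (0.74), and ribosomal protein medians are highest in M211 (-0.79).

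The 8 named genes with the largest SD included Gstp1, Polr2g, Rbp4, Aplp2, Vim, Fah, Cp and Ccl2. Fah, the last enzyme of tyrosine breakdown, averaged 0.98 ± 1.08, with M251 at -0.61, M243 at -0.20 and the other mice between 0.63 and 2.21; without M211 and M244 its mean was 0.63, with an adjusted p of 0.15 in limma. Cp, ceruloplasmin, which carries copper, averaged 1.89 ± 1.05, from 0.66 in M251 to 3.60 in F223. Polr2g, an RNA polymerase II subunit, averaged -0.76 ± 1.15 with M244 at -3.21, and without M244 it was not called, with a mean of -0.36. Aplp2, a relative of the amyloid precursor, averaged 0.44 ± 1.08 and was not called on 7 mice; its mean was 0.22 without M211, with an adjusted p of 0.54 in limma, and 0.78 without M244, with one of 0.0056. Ccl2, a monocyte chemokine, averaged -0.60 ± 1.04, from -2.52 in M244 to 0.73 in M211, and was not called on 7 mice; its mean was -0.27 without M244, with an adjusted p of 0.34 in limma, and -0.82 without M211, with one of 0.017.

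Gstp1 separated the mice by the letter of the identifier. It was 1.97, 2.01, 2.04 and 2.94 in M243, M251, M244 and M211, and -0.53, -0.22 and 0.20 in F223, F235 and F236, so that the groups did not overlap. The means were 2.24 ± 0.47 (n = 4) and -0.18 ± 0.36 (n = 3), and F minus M was -2.43 with an adjusted p of 0.0045 in limma over all features. It was the only feature of 1856 called for the letter (0.0539%), beside 48 at an unadjusted p under 0.05. As a level over all 7 mice it averaged 1.20 ± 1.35, with an adjusted p of 0.0020 in limma; without M211 and M244 it was 0.69 with one of 0.16. Without F223 the difference was -2.25 with an adjusted p of 0.12, and without each other mouse it kept its call, at -2.62 to -2.19. The next 4 named genes did not pass: Fmo1, a flavin monooxygenase, at 1.79, Vim at -1.71, Cyp2b3 at 1.58 and Apcs, serum amyloid P, at 1.41, with adjusted p of 0.18, 0.35, 0.56 and 0.83 in limma. Fmo1 as a level averaged 0.67 ± 1.03, Cyp2b3 0.049 ± 1.01 and Apcs 0.44 ± 0.87, each on both sides of 0. The labels do not say what the letter stands for.

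**Figure D4:**
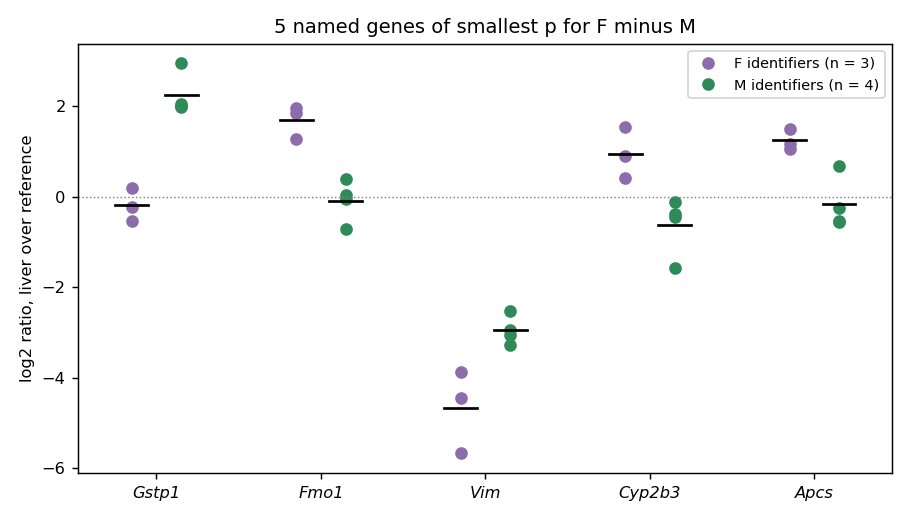
Log2 ratio of liver over reference (y axis) in each mouse (points) for the 5 named genes (x axis) of smallest p for the identifier letter, with F mice (n = 3) left and M mice (n = 4) right and bars at the means. The F and M points of Gstp1 do not overlap, with means of -0.18 and 2.24.

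The dye orientation was read from the same arrays. Over the named genes the mean ratios with liver RNA in Cy5 and with liver RNA in Cy3 correlated at r = 0.91 across genes, which are not independent replicates. A dye effect, the part of a ratio that did not turn with the dyes, was called in 122 features (6.57%), 65 toward Cy5 and 57 toward Cy3, but in 8 to 176 with single mice left out. It was 11 without F236, 16 without M211, 10 without M251, 8 without M243 or F235, 176 without M244 and 63 without F223. In 6 of the 541 called named genes the orientations differed in sign, and in 0 of the 155 beyond 2-fold. The largest effect was in Bud31, a splicing factor, which averaged 0.098 with liver in Cy5 and -2.84 with liver in Cy3. Fmo1 averaged 1.75 and -0.40, Slc4a2 0.46 and -1.60, Gpd1 2.37 and 0.40, and Cand1, a regulator of ubiquitin ligases, -1.29 and 0.40. The combined values of Fmo1, Slc4a2 and Bud31 (-1.37 ± 0.63) therefore rest on orientations that do not share a sign, and the combined -0.44 ± 0.75 of Cand1 was not called on 7 mice; without M244 it was -0.23 with an adjusted p of 0.38 in limma, and without M211 -0.60 with one of 0.046. Fmo1 lost its call without F236, M211, F235 or F223, at means of 0.46 to 0.91 with single mice left out. With liver in Cy5 alone the calls of Hmox1 at -0.13, Aif1 at -0.11, Polr2g at -0.085, Pgk1 at 0.23, Nos3 at -0.29 and Socs2 at 0.66 were also lost. So were those of Apoc1, C1qb, Slc11a1, Mdh1, Cyp2c11 and Gstp1, the last as a level over all mice. With liver in Cy3 alone the calls of Tkt at -0.50, Gpd1 and Cyp2c11 were lost.

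**Figure D5:**
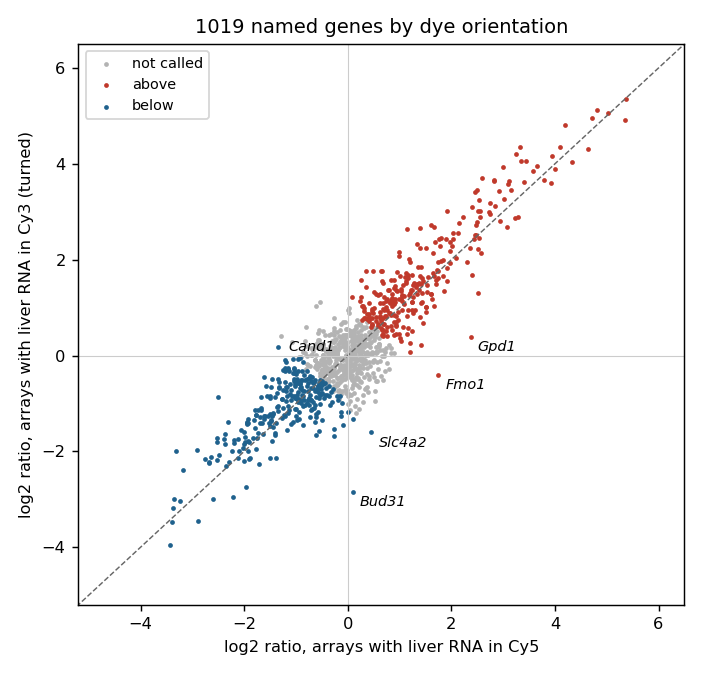
Mean log2 ratio of each of 1019 named genes on arrays with liver RNA in Cy5 (x axis) and on turned arrays with liver RNA in Cy3 (y axis), coloured by call, with the line of equality dashed. Most called genes keep their sign (r = 0.91 across genes); the 5 labelled genes had the largest dye effects.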

How the data were processed

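Dual-dye arrays of liver RNA from 7 thermoneutral mice (20 arrays) were used. The authors deposited 1 log ratio per spot and array, read here as the log2 of Cy5 over Cy3. The order of the dyes was taken from the dye labels and the plasma protein genes. For the log base, background correction and normalization the sources used here hold no statement. The values ran from -6.80 to 7.71, and 4 (0.0104%) were missing. No intensities were used, so dim or saturated spots are unknown and the number of mice limits the precision. The platform annotation gave 1 symbol to 1083 of 1920 spots, several to 7 and left 830 unlisted; the symbols are old and partly of the rat, and 942 of 1019 are mouse symbols in RefSeq. Some unlisted spots may be controls.

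Each array was centred on its median and spots of a gene were averaged. The value of a mouse was (mean of its Cy5 arrays minus mean of its Cy3 arrays) divided by 2, which removes the dye effect. The means were tested against 0 with limma 3.58.1 in R 4.3.3 (eBayes, and treat at 2-fold), for features with a value in at least 4 mice, and the threshold on the adjusted p was 0.05. The letter was tested as a second group term. The procedure was tested on simulated data. The mice, gene lists (46) and rules were chosen with earlier results of these data known. The genes named are the 15 highest and 15 lowest called with 1 sign in all mice and orientations, up to 3 members at each end of each list, and those with the largest spread, letter difference or dye effect; not all are printed. Alternatives were another centring, scaling, combining rule, dye orientation, log base, weighting, filter, and leaving out mice; M211 and M244 were left out together after seeing the data. Promoter sequences are from RefSeq.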

Additional observations from a re-analysis of the deposited data

Results flagged for a closer look

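A mouse lay far from the other 6, by its gap to the nearest of them against the whole range, in 26 of 186 values checked (13.98%). The cutoff flags about 1 in 20 for independent normal values. These genes and lists share mice and members, and some genes were picked for a large spread, so 13.98% measures no excess over that rate. M244 was the mouse flagged in 17 of the 26, and M211 in 4. The Cy5 array of M244 had the widest ratios of the 20. Over all named genes the median of M244 was -0.63, against -0.11 to 0.24 in the other mice. The low values of single genes and lists in M244 include that shift. What the shift and the wide array contribute was not tested. M244 was far above the range of the other mice in Gc at 4.55 against 3.42 to 3.85, Apoh at 1.70 against -0.67 to 0.28 and Rps26 at 1.73 against -0.42 to 0.44. It was far below in Vamp8 at 4.06 against 4.99 to 5.27, P4ha1 at -3.31 against -1.45 to -0.40, Npm1 at -2.23 against -1.18 to -0.74 and Hsp90ab1 at -2.80 against -1.61 to -0.83, and also in Nos3 at -1.17 against -0.66 to -0.28, Slc4a2 at -1.95 against -0.68 to -0.12, Pnliprp1 at -2.67 against -0.83 to -0.19 and Polr2g at -3.21 against -0.80 to 0.19. The medians of gene lists in M244 were far from those of the other mice for mitochondrial respiratory chain and TCA cycle at -1.05 against -0.26 to 0.12, proteasome and ubiquitin at -1.18 against -0.47 to -0.046 and cell cycle and DNA replication at -2.08 against -0.74 to -0.19, and also for matrix, adhesion and stellate cell markers at -0.95 against -0.33 to 0.12, lymphocyte and antigen presentation markers at 0.73 against -0.20 to 0.12 and peroxisome and lysosome at -0.81 against -0.14 to 0.27.

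M211 was far above the others in Rpl13a at -1.12 against -2.79 to -2.34, Gclm at 2.14 against 0.68 to 1.30, Abcd3 at 2.73 against 1.70 to 2.11 and glutathione S-transferases at 2.24 against 0.94 to 1.42. F236 was far above in Cyp4f1 at 2.33 against 1.21 to 1.60 and Cyp4f4 at 2.05 against 0.69 to 1.08. F223 was far above in Decr1 at 3.54 against 1.88 to 2.57 and Socs2 at 2.00 against 0.76 to 1.21, and M251 far below in Hspa5 at -2.17 against -1.38 to -0.95.

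Gstp1 differed between the identifier letters, with F minus M at -2.43 and an adjusted p of 0.0045 in limma, higher in 4 of 4 M mice than in any of 3 F mice.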

How the results depend on the processing

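Of the 132 called genes named above, 92 kept their call and direction under every alternative compared gene by gene, up to 23 for a gene. Of all 3380 pairs of a named gene and an alternative 3192 kept both, 93 lost the call, 23 gained it and 72 turned sign. Spots left unaveraged were compared only as counts, so genes whose spots disagree were not checked that way. Natural logarithms, and features with a value on all 20 arrays, kept 100% of the calls and could hardly do otherwise. The centring mattered most. Centring on the reference genes gave 90.2% of features above and 3.02% below, 422 and 7 named genes beyond 2-fold, and 38 lists with a median above 0. It turned 185 called genes, and the list medians became 0.89 for proteasome and ubiquitin, 0.69 for translation factors and tRNA synthetases, 0.97 for chaperones of the endoplasmic reticulum and secretion, 0.58 for cytosolic and mitochondrial chaperones, 0.26 for cytoskeleton, 0.97 for kinases and signalling, 0.82 for Kupffer cell and macrophage markers and 0.17 for commonly used reference genes. Among the named genes it gave Ttr 1.34, Apoc1 0.46, C1qb 0.37, P4ha1 0.015, Tkt 0.39, Rara 0.19, Dio1 0.44, Hmox1 0.67, Fth1 0.41, Atp5mc2 0.30, Psma7 0.26, Npm1 0.22, Eef2 0.36, Hspa5 0.041, Pdia3 0.30, Ppia 0.10, Myc 0.24, Slc11a1 0.82, Aif1 0.82, Clec4f 1.23, Nos3 0.88, Slc4a2 0.80, Pnliprp1 0.56, B2m 1.33, Polr2g 0.61, Ccl2 0.78, Bud31 0.0026, Cand1 0.93 and Cyp2c11 0.86. These moves follow from the construction, a shift of every value. With no centring 13.1% of features were below and 58.3% of the called named genes above, with Ttr 0.053 and B2m 0.049. Reading the values as natural logarithms gave 137 named genes above and 95 below beyond 2-fold, again by construction.

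The other turned signs were in genes near the array median or with a dye effect. Liver in Cy5 only gave Ttr 0.21, Fbp1 -0.24, Clec4f 0.16, Slc4a2 0.46, B2m 0.40 and Bud31 0.098. Liver in Cy3 only gave Fmo1 -0.40, Cyp2b3 -0.044 and Cand1 0.40. The plain mean gave Fbp1 -0.035 and B2m 0.13; the shared dye term B2m 0.0021; unlisted spots as centre Fbp1 -0.026 and Cyp2b3 -0.018; scaling to 1 spread Apoh -0.047 and Rpl10a -0.014; quantile normalization Rpl10a -0.0068 and B2m 0.0085; array weights Apoh -0.072, Rps3a -0.071, Rps26 -0.12 and B2m 0.0068; a mouse block B2m 0.016. Without the Cy5 array of M244 they were Apoh -0.059 and Rpl10a -0.057, and without M211 and M244 Apoh -0.050, Rps3a -0.064 and Rps26 -0.094.

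With single mice left out, the share of features above ran from 17.6% to 22.6% and below from 17.1% to 21.6%, named genes beyond 2-fold from 88 to 105 above and 50 to 70 below, lists with a median above 0 from 23 to 26, features with a dye effect from 8 to 176, and features called for the letter from 0 to 1. Genes that turned sign ran as follows: Fbp1 -0.054 to 0.12, Cyp2b3 -0.20 to 0.32, Ttr -0.27 to 0.087, Apoh -0.15 to 0.24, Rps3a -0.041 to 0.30, Rps26 -0.082 to 0.28, Rpl10a -0.058 to 0.23, Clec4f -0.22 to 6.3e-04 and B2m -0.080 to 0.0089. Liver in Cy5 only called 0 features for the letter, with Gstp1 at -2.51. Except where a reason is given, the cause was not tested. No paired analysis was possible because there is 1 group of mice and the reference is 1 RNA. Without intensities, signal over background is unknown, so which ratios rest on dim spots cannot be said.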

Other observations

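The 837 spots without a single gene name also held ratios far from the array median. Of them 89 were above and 106 below by the same limma rule, and 27 and 13 beyond 2-fold. They carry no gene here and are given as counts.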
